A study of Drosophila melanogaster with 4 samples.

Results

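The early genes of the ecdysone response, br, Eip74EF and Eip75B, were examined for histone H3 dimethylated at lysine 4 (H3K4me2) in third-instar larvae of Drosophila melanogaster. Members were the H3K4me2-enriched regions that overlapped a window around each gene, in FlyBase release 5 coordinates, namely X 1470001 to 1580000 for br (110 kb), 3L 17540001 to 17640000 for Eip74EF (100 kb) and 3L 17930001 to 18080000 for Eip75B (150 kb). The windows are fixed positions with no limit on any measured value. They contained 13 of the 4752 enriched regions of replicate 1, 14 of the 4701 of replicate 2, and 14 of the 4991 in a list that combined the replicates. The br window had 3 regions in each of the 3 lists, the Eip75B window had 4 in each, and the Eip74EF window had 6 in replicate 1 and 7 in replicate 2 and in the combined list.

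The larvae were wild-type Oregon-R, with no transgene or treatment, and the chromatin came from nuclei. There were 2 H3K4me2 immunoprecipitates and 2 samples of input chromatin, and each immunoprecipitate was called against the input of the same replicate number. The regions and their scores are the authors' own. The score's scale is not given in the sources used here, and read depth is unknown, so scores serve only for ranking within a list. The labels do not say whether the 2 replicates are separate cultures, so their SD may reflect technical variation alone, nor how close the animals were to pupariation, and tissues were not separated, so a mark in a few cells and a weak mark in many cannot be told apart. The lists carry no gene names and the gene table at hand follows release 6, so the labels of the windows could not be checked against the regions, and no region was assigned to a promoter, exon or intron.

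Ecdysone is the steroid hormone that drives moulting and metamorphosis in insects. Its receptor, a heterodimer of EcR and Usp, directly switches on a small set of early genes at the end of larval life, and their products, which are transcription factors, go on to regulate many late genes. In the polytene chromosomes of the larval salivary gland these early genes were first seen as puffs. H3K4me2 marks promoters and enhancers, both in use and ready for use, and all 3 genes are long, with several promoters and several protein isoforms. In the gene order of the RefSeq table (Release 6), br overlaps Mur2B and lies between inc and dor, Eip74EF lies between CycT and Vps60, and Eip75B overlaps CG32192 and CG42393 and lies between CG5290 and CG44006. A region within a window may therefore belong to a neighbour.

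br encodes the Broad proteins, zinc-finger transcription factors with a BTB domain that are required for entry into metamorphosis. Its window was the most heavily marked of the 3 in each replicate, though not in the combined list, where Eip74EF was. H3K4me2 regions covered 27.8% of it in replicate 1 and 27.5% in replicate 2 (27.7% ± 0.176, SD, n = 2), and 29.4% in the combined list. The whole of X was covered to 17.7% ± 0.169 (SD, n = 2). Among the 22313 windows of 110 kb placed every 1 kb along X, the br window exceeded 77.0% in replicate 1 and 76.9% in replicate 2. The median such window was covered to 15.7% in replicate 1 and 15.4% in replicate 2, and the most heavily marked to 72.8% and 71.4%. The br window thus stood just above the upper quartile of its arm in the replicates (26.8% and 26.5%), but not in the combined list, where it exceeded 74.2% of windows. Windows that overlap are not independent, so these ranks are descriptions and carry no p.

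Most of the mark at br lay in a single broad domain. It spanned X 1502441 to 1522621 in replicate 1 (20.2 kb) and X 1502463 to 1522605 in replicate 2 (20.1 kb). It held 63.0% of the summed length of the 3 regions in replicate 1 and 63.6% in replicate 2. This domain was the 6th longest of 805 regions on X in replicate 1 and the 6th longest of 804 in replicate 2. In the combined list it was 20.7 kb long and the 11th longest of 846. A second region, X 1558255 to 1565841 in replicate 1, was 7.59 kb long there and 7.46 kb long in replicate 2. It had the highest score at br, 2.15 in replicate 1 and 1.74 in replicate 2, above 81.6% and 69.6% of the regions on X. The third lay across the left edge of the window, from X 1468508 to 1472797 in replicate 1, was 4.29 kb long there and 4.05 kb long in replicate 2, and scored 1.13 and 0.98. Of the 3 regions, 2 were 5 kb or longer in each replicate, where 35.0% of all regions on X reached that length in replicate 1 and 34.3% in replicate 2. In the combined list all 3 reached it, against 38.2% of regions over the rest of X. With 3 regions, these counts are too small to set br apart from the arm.

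Eip74EF encodes E74, a transcription factor of the ETS family. Its window was covered to 23.8% in replicate 1 and 26.1% in replicate 2 (24.9% ± 1.68, SD, n = 2), and to 30.4% in the combined list. Chromosome arm 3L as a whole was covered to 15.9% ± 0.290 (SD, n = 2). Among 24444 windows of 100 kb on 3L, the Eip74EF window exceeded 73.2% in replicate 1, 78.9% in replicate 2 and 81.1% in the combined list. The spread between the replicates was enough to move it across the upper quartile of its arm, which was 24.5% in replicate 1 and 24.1% in replicate 2. With only the regions scoring above the median of their list, the window was covered to 9.04% and exceeded 54.3% of windows, as means of the replicates.

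The mark at Eip74EF was divided among more regions than at br. The 6 regions of replicate 1 exceeded the number in 77.2% of windows on 3L, with ties counted at 50%. The 7 of replicate 2 exceeded the number in 85.0%. These counts include regions split by short gaps, of 224 and 223 bp in replicate 1 and 417 and 337 bp in replicate 2. In replicate 1, 2.78% and 2.67% of the distances on 3L were shorter, and in replicate 2, 5.68% and 4.47%. The median window had 4 regions in each replicate, and the count with such gaps joined was not ranked. Lengths ran from 1.55 to 9.28 kb in replicate 1 and from 1.45 to 9.68 kb in replicate 2, with medians of 3349 and 3303 bp, close to the medians of 3353 and 3362 bp over the rest of 3L. The highest score belonged to the region nearest the left edge of the window, 3L 17548009 to 17551360 in replicate 1 (3.35 kb). It scored 2.19 in replicate 1 and 1.93 in replicate 2, above 87.9% and 85.7% of the regions on 3L. A region at 3L 17612914 to 17616762 in replicate 1 was next, with scores of 2.03 and 1.77 and lengths of 3.85 and 4.17 kb. Only the longest region at Eip74EF reached 5 kb, 1 of 6 in replicate 1 and 1 of 7 in replicate 2. Over all of 3L, 26.7% of regions did so in replicate 1 and 25.6% in replicate 2. In the combined list 1 of 7 regions at Eip74EF did, against 28.9% over the rest of 3L.

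Eip75B encodes E75, a nuclear receptor that binds haem and is related to the vertebrate Rev-erb receptors. Its window was the most sparsely marked, covered to 10.3% in replicate 1 and 9.65% in replicate 2 (9.96% ± 0.438, SD, n = 2), and to 12.2% in the combined list. Among 24394 windows of 150 kb on 3L, it exceeded 37.0% in replicate 1 and 35.8% in replicate 2. The median window of that size was covered to 14.7% in replicate 1 and 14.4% in replicate 2, so that Eip75B lay below the middle of its arm in each. With only the regions scoring above the median of their list, it was covered to 1.90%. The replicate means of the 3 loci, 27.7%, 24.9% and 9.96%, differed by more than the spread between replicates at any of them, but with 2 replicates no test was run on these differences, and the windows differ in size.

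All 4 regions at Eip75B were of ordinary length. Regions at 3L 17951135 to 17955540, 3L 17962151 to 17964961, 3L 17988146 to 17993452 and 3L 18052895 to 18055768 in replicate 1 were 4.41, 2.81, 5.31 and 2.87 kb long. Their counterparts in replicate 2 were 4.69, 2.67, 4.29 and 2.82 kb long. The third passed 5 kb in replicate 1 and no region did in replicate 2, against the 26.7% and 25.6% over 3L given above. In the combined list 2 of 4 did, at 5.63 and 6.19 kb, against 28.7% of regions over the rest of 3L. The highest score was that of the last region, which stood apart from the other 3 near the right end of the window and scored 1.94 in replicate 1 and 1.60 in replicate 2, above 74.5% and 64.7% of the regions on 3L. The lowest was that of the 2.81 kb region, 0.78 in replicate 1 and 0.51 in replicate 2.

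**Figure D1:**
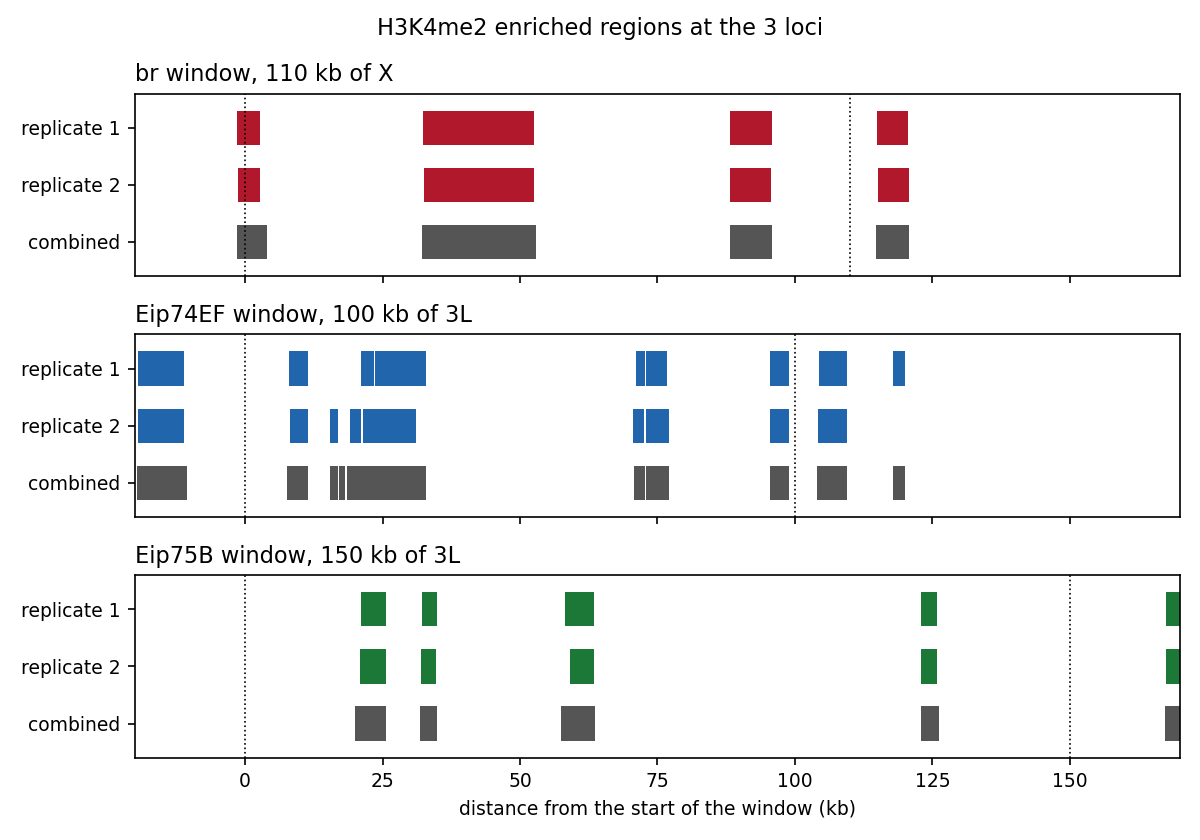
Enriched regions at br, Eip74EF and Eip75B, drawn as bars along the distance from the start of each window in kb, with a row for each replicate and for the combined list. Dotted lines mark the ends of the window and regions are drawn to 20 kb beyond them. The map shows the 20.2 kb domain of br, the split cluster of Eip74EF and the 59.4 kb without mark at Eip75B.

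**Figure D2:**
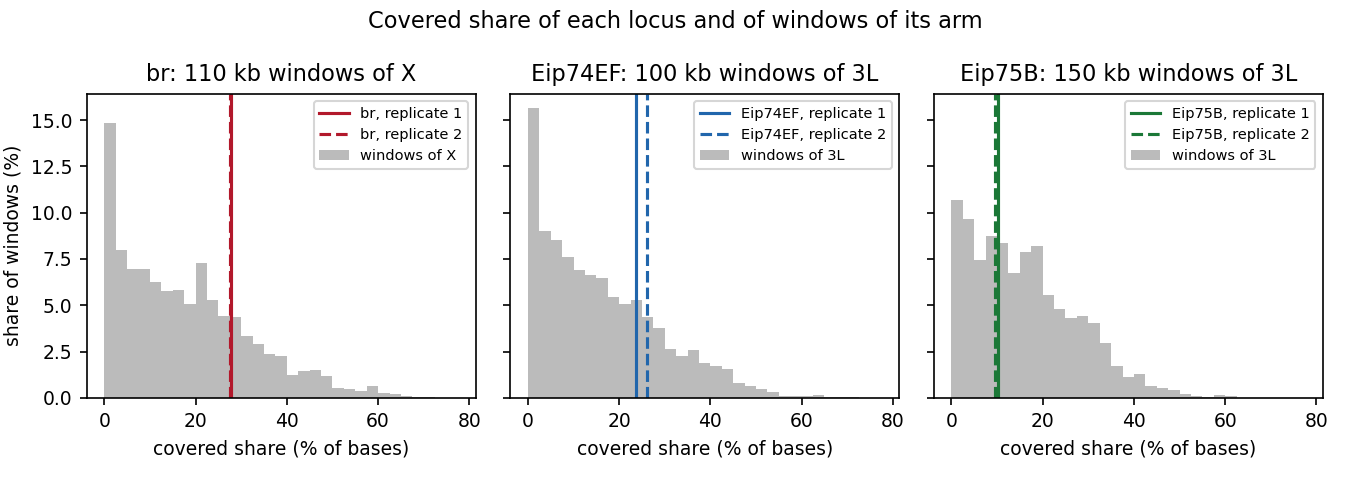
Covered share of each locus in replicate 1 (solid line) and replicate 2 (dashed line), over the distribution of the replicate mean in all windows of the same size on the same arm (grey; vertical axis, percent of windows). br and Eip74EF lie near the upper quartile of their arms, and Eip75B lies below the median of 3L, with all regions counted whatever their score.

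Neighbouring windows of the same size showed how local the coverage was. The br window, at 27.7% ± 0.176, lay between a window covered to 19.7% ± 0.0186 on its left and one covered to 7.86% ± 0.0823 on its right (SD, n = 2). The Eip74EF window, at 24.9% ± 1.68, was covered about as much as its left neighbour, at 23.8% ± 0.107, and more than its right neighbour, at 10.1% ± 2.51 (SD, n = 2). The Eip75B window, at 9.96% ± 0.438, was covered less than its left neighbour, at 22.9% ± 0.660, and within the replicate spread of its right neighbour, at 10.2% ± 0.779 (SD, n = 2). Of the 3 windows, br alone exceeded both neighbours by more than the replicate spread.

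In 10 kb bins the mark was concentrated in part of each window. At br the bin from 40 to 50 kb was fully covered in both replicates, and 5 of 11 bins held no mark in either. At Eip74EF the bin from 20 to 30 kb was covered to 91.7% ± 5.81 (SD, n = 2), and 4 of 10 bins held none. At Eip75B the most heavily covered bin, also from 20 to 30 kb, reached 45.5% ± 2.04 (SD, n = 2), and 10 of 15 bins held none in either replicate.

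Each window contained a long stretch without mark between 2 of its regions. At br it ran from X 1522622 to 1558254 in replicate 1, between the broad domain and the region of highest score, and was 35.6 kb long in each replicate. At Eip74EF it ran from 3L 17572893 to 17611137 in replicate 1 and was 38.2 kb long there and 39.4 kb long in replicate 2. At Eip75B it ran from 3L 17993453 to 18052894 in replicate 1 and was 59.4 kb long there and 59.5 kb long in replicate 2. The combined list had no separate region within any of these stretches.

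Such stretches were long beside the typical distance between neighbouring regions, and common in windows of this size. The median distance was 6.34 kb on X and 7.69 kb on 3L in replicate 1. In that replicate 16.7% of the distances on X were longer than the one at br, and on 3L 16.5% were longer than the one at Eip74EF and 9.27% longer than the one at Eip75B. Yet the longest unmarked stretch of a window was larger than that of br in 74.5% of windows of X, larger than that of Eip74EF in 65.1% of windows of 3L and larger than that of Eip75B in 50.5%, all in replicate 1. By this measure none of the windows was unusually empty.

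**Figure D3:**
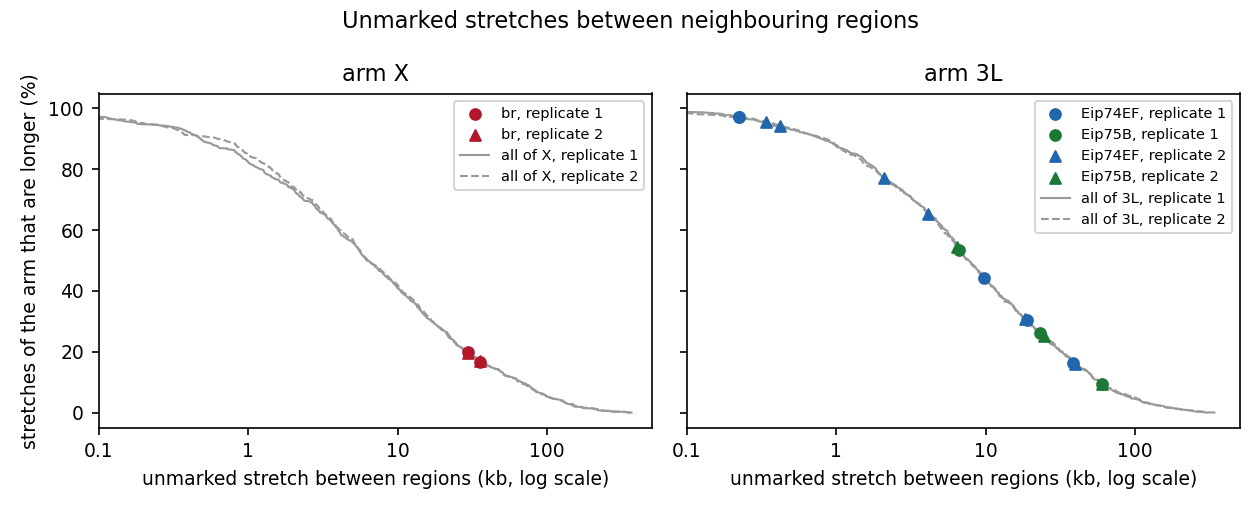
Unmarked stretches between neighbouring regions inside the windows (points), by length in kb on a log axis, over the share of stretches on the whole arm that are longer (grey lines; solid, replicate 1; dashed, replicate 2). The longest stretches at br, Eip74EF and Eip75B, of 35.6, 38.2 and 59.4 kb in replicate 1, lie where 16.7%, 16.5% and 9.27% of stretches on the arm are longer.

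Most of the mark at br lay in regions of middling to high score, while the result at the loci on 3L depended on where the limit was set. Regions scoring above the median of their list held 90.8% of the marked bases at br in replicate 1 and 91.1% in replicate 2, against 71.6% and 70.8% over all of X. At Eip74EF they held 30.3% in replicate 1 and 41.7% in replicate 2, and at Eip75B 18.7% and 19.5%, against 64.2% and 63.1% over all of 3L. The list medians were 1.55 and 1.43, and several members of the 3L loci scored close to them. At Eip74EF the longest region and the one at 3L 17635499 to 17638843 both scored 1.49 in replicate 1, just under the median, and the counterpart of the second scored 1.43 in replicate 2, just over it. At Eip75B the highest score under the limit was 1.51 in replicate 1 (3L 17951135 to 17955540) and 1.42 in replicate 2 (3L 17989149 to 17993438).

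A lower limit, tried after the values were seen, placed Eip75B above the share over 3L and gave unlike answers in the replicates at Eip74EF. With the 60% of regions scoring highest, Eip74EF had 83.5% of its marked bases in such regions in replicate 1 and 41.7% in replicate 2, and Eip75B had 81.7% and 81.6%, against 74.3% and 72.9% over 3L. The share at br was 90.8% and 91.1% as before, against 78.7% and 77.1% over X. The top score at Eip74EF, 2.19 in replicate 1 and 1.93 in replicate 2, was also above that at br, 2.15 and 1.74.

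The broad domains of br and Eip74EF had low scores for regions of their length, which was noticed after the values were seen and was not tested. The 20.2 kb domain of br scored 1.76 in replicate 1 and 1.56 in replicate 2. Of the regions of 10 kb or more on X, itself included, 7 of 70 scored lower in replicate 1 and 11 of 67 in replicate 2. In the combined list 16 of 95 did. Counted from 5 kb, as for Eip74EF below, 67 of 282 and 68 of 276 scored lower in replicates 1 and 2. In the combined list 113 of 325 did, so the br domain stood less low by that limit. The longest region of Eip74EF, of 9.28 kb in replicate 1 and 9.68 kb in replicate 2, scored 1.49 and 1.21, and of the regions of 5 kb or more on 3L 38 of 245 scored lower in replicate 1 and 21 of 232 in replicate 2. In the combined list the Eip74EF domain was 14.4 kb long and scored 1.04, and none of the 60 regions of 10 kb or more on 3L scored lower. Counted from 5 kb, 15 of 278 did. This domain merged 2 regions of each replicate, which scored 0.59 and 1.49 in replicate 1 and 0.42 and 1.21 in replicate 2. No region at Eip74EF reached 10 kb in either replicate.

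**Figure D4:**
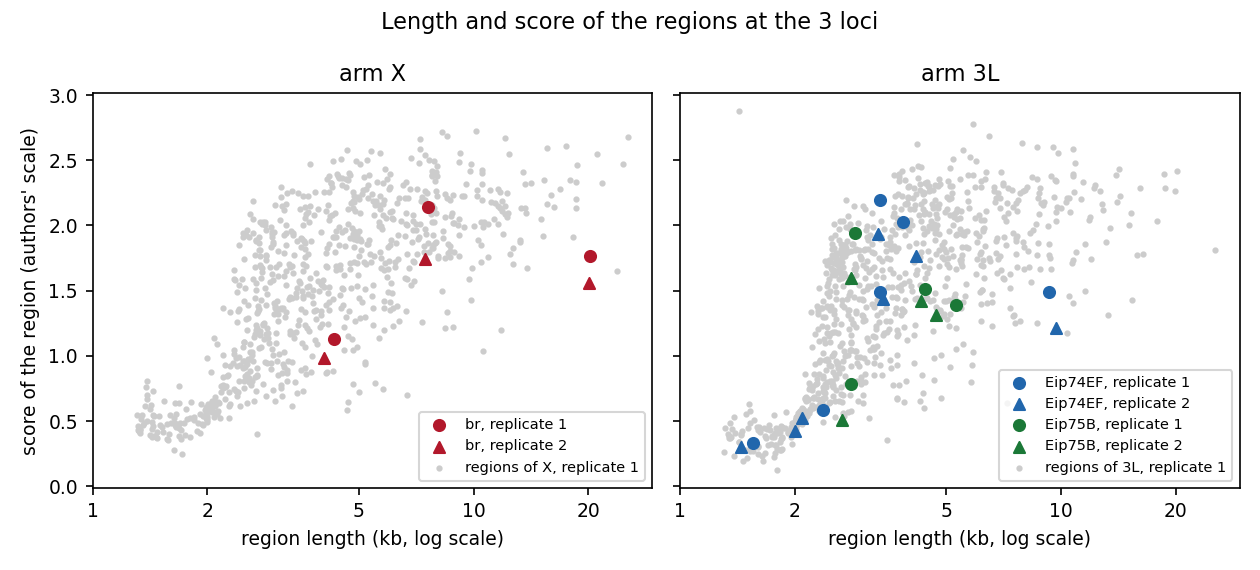
Score on the authors' scale against length in kb (log axis) for the regions at br (left), Eip74EF and Eip75B (right), with circles for replicate 1 and triangles for replicate 2, over all regions of the arm in replicate 1 (grey). The 20.2 kb domain of br (score 1.76) and the 9.28 kb region of Eip74EF (score 1.49) lie low among regions of their length.

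Replicates agreed closely at br and less closely at Eip74EF. At br the replicates shared 30.3 kb of the 30.6 kb marked in either, or 99.0%. This was more than in 98.7% of the marked windows on X, whose median was 91.2%. For a given difference between edges this share is higher in longer regions. The median region at br was 7.59 and 7.46 kb long in replicates 1 and 2, against 3.81 and 3.77 kb over the rest of X. The part of length in the rank of br was not tested. At Eip75B they shared 14.0 kb of 15.8 kb, or 88.4%, more than in 24.6% of the marked windows on 3L (median 92.9%). At Eip74EF they shared 21.4 kb of 28.5 kb, or 75.03%, more than in only 5.25% of the marked windows on 3L (median 93.6%). The covered share of the Eip74EF window differed by 2.37 percentage points between replicates, a larger difference than in 93.4% of windows.

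The disagreement at Eip74EF lay mainly in a cluster from 3L 17555485 to 17572974, a span chosen after the values were seen. Inside these 17.5 kb the replicates shared 61.8% of 15.3 kb marked in either, and in the rest of the window 90.4% of 13.2 kb. Replicate 1 had a region of 2.38 kb at 3L 17561015 to 17563389 and one of 9.28 kb at 3L 17563614 to 17572892, separated by 224 bp. In replicate 2 there were regions at 3L 17555485 to 17556934 (1.45 kb), 3L 17559018 to 17561026 (2.01 kb) and 3L 17561444 to 17571125 (9.68 kb). The boundaries between regions thus fell at different places, and the broad region ended 1767 bp further left in replicate 2.

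The combined list merged most of this cluster into a single region, 3L 17558596 to 17572974. It also had a short region at 3L 17555486 to 17556870, matched in replicate 2 only, and another at 3L 17557103 to 17558233 (1131 bp, score 0.21), matched in neither. The region of 1.45 kb in replicate 2, which scored 0.30, was the only one of that replicate's 11 members on 3L with no counterpart in replicate 1, where 2.43% of the 907 regions of replicate 2 on 3L had none. The 2.01 kb region of replicate 2 had a counterpart only through an overlap of 12 bp. Every member of replicate 1, and every region at br, had a counterpart in the other replicate. Of the 11 combined members on 3L, 1 was found in neither replicate, where 5.58% of the combined regions on 3L were. A single region is too few to read against either share.

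By the median, edges outside the cluster were placed about as closely as on the arm at br and Eip74EF, and less closely at Eip75B. There were 11 one-to-one pairs of regions over the 3 windows, 3 at br and 4 at each of the others. The median difference between their edges was 68 bp at br, 57.5 bp at Eip74EF and 110 bp at Eip75B, against medians of 77 bp on X and 63 bp on 3L. The largest difference, 1003 bp, was at the left end of the third region of Eip75B, which started at 3L 17988146 in replicate 1 and 17989149 in replicate 2. No other edge of the 11 pairs differed by more than 659 bp, the left end of a short region at Eip74EF (3L 17611138 in replicate 1). The 90th percentile of such differences was 442 bp on X and 301 bp on 3L. The largest at br was 146 bp. Above the limit of 3L were 1003 and 308 bp at Eip75B and 659 and 317 bp at Eip74EF.

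The combined list marked more sequence than the replicates at all 3 loci. It exceeded the replicate mean by 6.23% at br, 21.7% at Eip74EF and 22.5% at Eip75B, against 11.6% over X and 9.03% over 3L. Bases marked in neither replicate made up 5.37% of the combined mark at br, 7.04% at Eip74EF and 13.5% at Eip75B, against 6.15% over X and 4.63% over 3L. At Eip75B this added sequence lay at the edges of the 4 regions, since the combined list had no further region there. How the authors combined the replicates is not given in the sources used here, and the part of depth in these differences was not tested.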

How the data were processed

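The data were 3 lists of H3K4me2-enriched regions in GFF3 format, 1 for each immunoprecipitate and 1 deposited for the combined replicates, with start, end and a score for each region. The aligner was Bowtie 0.12.7 per the submitters' processing notes, and coordinates follow FlyBase release 5, per the file headers. The deposited score has no stated scale, and for the region caller, its threshold and the combining of replicates the method is not stated in the sources used here. The 3 depleted regions of the combined list were left out. Files of the inputs were not used here.

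Windows of the size of each locus were placed every 1 kb along the same arm, and ranks count ties at 50%. Regions matched when they shared at least 1 bp. Shared bases are those marked in both replicates over those marked in either. Mean and SD are over 2 replicates. The window code was tested on simulated data. The members, their windows and the tables were chosen with earlier results of these data known. Coordinates are given for the 3 longest regions shared by the replicates and the highest-scoring one at each locus, those found in a single list, and the longest unmarked stretch; others were added where a result rests on them. A planned list of other ecdysone pathway genes was not used, because no release 5 gene positions were at hand. Python 3.11.15, numpy 2.4.6, pandas 2.3.3, scipy 1.17.1 and matplotlib 3.10.9 were used.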

Additional observations from a re-analysis of the deposited data

How the results depend on the processing

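Of 60 alternatives over 12 results (covered share, window rank, shared bases and median length at each locus), 18 left out a replicate and by construction stayed within 1 SD of the mean of 2. Values of the others that moved by more than 1 SD are given next. The SD differs between loci, so a change counted as moved at one locus can be smaller than a change not counted at another. Shared bases have no SD, and a binomial interval over bases treats neighbours as independent and is too narrow, so their values are given without a verdict. In the combined list the covered share was 29.4% at br, 30.4% at Eip74EF and 12.2% at Eip75B, the window rank 74.2%, 81.1% and 39.6%, and the median length 7692, 3450 and 4478 bp. With only the regions scoring above the list's median, the covered share was 25.2% at br, 9.04% at Eip74EF and 1.90% at Eip75B, the rank 83.7%, 54.3% and 22.5%, and the shared bases 99.3%, 65.0% and 98.0%. This limit counts less sequence by construction. With the 60% of regions scoring highest in place of 50%, a limit added after seeing the data, the mean share of marked bases in such regions was 62.6% at Eip74EF and 81.7% at Eip75B, against 36.0% and 19.1% at 50%; with the 40% scoring highest, no locus moved by more than 1 SD. With windows narrowed by 10 kb at each end, the covered share was 30.8% at br and 11.5% at Eip75B, the rank 80.05% at br and 42.7% at Eip75B, and the shared bases 99.3% at br and 69.8% at Eip74EF. With windows laid end to end the rank of br went from 76.9% to 75.1%, which counts as moved. That of Eip74EF went from 76.1% to 73.7%, which stayed within 1 SD. Joining regions under 500 bp apart gave 77.9% shared bases and a median length of 3952 bp at Eip74EF. Counting only regions whole inside the window gave a median length of 13844 bp at br, from 2 regions. Without a replicate, covered shares were 27.5% to 27.8% at br, 23.8% to 26.1% at Eip74EF and 9.65% to 10.3% at Eip75B. The br window kept the highest covered share of the 3 loci and Eip75B the lowest under each alternative but the combined list, where Eip74EF was highest. Shared bases need both replicates. No paired analysis was possible because every value here comes from the immunoprecipitates, and no values of the inputs were at hand to pair with them. Read depth is unknown, which limits every comparison between lists.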
